A study of Homo sapiens with 4 samples.

Results

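MYC and its partners were followed here as 7 genes of the MAX and MLX network, namely MYC, MAX, MGA, MNT, MXD4, MLX and MYCN, in a profile of the RNA bound by IGF2BP2 in Jurkat cells. The genes were taken by name. Their peaks were the entries of the deposited lists that carried the gene's Ensembl identifier and lay mainly in coding sequence (CDS), untranslated regions (UTRs), noncoding exons or introns of that gene, so that antisense and intergenic entries were left out. Sense peaks of this kind were listed for 6 of 7 members, numbering 29 in replicate 1 and 36 in replicate 2, out of 74237 and 77288 sense peaks of 20428 identifiers. The study used iRIP-seq, in which UV light fixed IGF2BP2 to RNA in living cells, an anti-IGF2BP2 antibody pulled the protein down, and the attached RNA was sequenced. Jurkat is an established human T-cell acute lymphoblastic leukemia line, with no treatment or genetic change named in the labels, and all libraries came from this 1 line. Peak lists of 2 immunoprecipitation libraries were analysed, and the 2 input libraries were not analysed here. There was thus a single condition and no contrast between groups, and the labels do not say whether the libraries came from separate cultures, so the spread between them may be technical.

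MYC is a transcription factor of the basic helix-loop-helix leucine zipper family and binds DNA only when paired with MAX. MAX also pairs with MNT, the MXD proteins and MGA, which repress many of the genes that MYC activates, while MLX forms a parallel set of pairs. In T-cell leukemia MYC is a main target of NOTCH1 signalling. Its mRNA is short-lived, and proteins of the IGF2BP family are known to bind a stretch at the 3′ end of its coding sequence, the coding region determinant, and to shield the mRNA from decay. The comparison of interest was therefore where along MYC the IGF2BP2 peaks lay, and whether the mRNAs of its partners carried peaks as well.

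MYC had the most peaks of the 7 genes. It carried 13 sense peaks in replicate 1 and 11 in replicate 2, a mean of 12.0 ± 1.41 (SD, n = 2). MGA followed with 7 and 6 peaks, MAX with 2 and 8, MXD4 with 4 and 5, MLX with 2 and 5, and MNT with 1 and 1. MYCN had no sense peak in either list. The order of MGA, MAX, MXD4 and MLX was not separated by the spread between the replicates, since MAX was level with MLX at the low end of these 4 in replicate 1 and above MGA in replicate 2. All 6 genes with a peak had one in both lists, against 59.5% of the identifiers with a sense peak in either list. Over all members this was 6 of 7, against 44.2% of all 20056 protein-coding genes. Overlapping peaks, found in both libraries on the same strand with at least 1 nt in common, occurred in MYC, MAX, MXD4 and MLX alone, and in 15.2% of all protein-coding genes. No member reached 10 tags in both lists, a level that 3.80% of protein-coding genes reached. A gene without a named identifier counts as one without a peak in the shares over protein-coding genes, which lowers those shares. The members were chosen with results of these data known, so their counts were not tested.

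**Figure D1:**
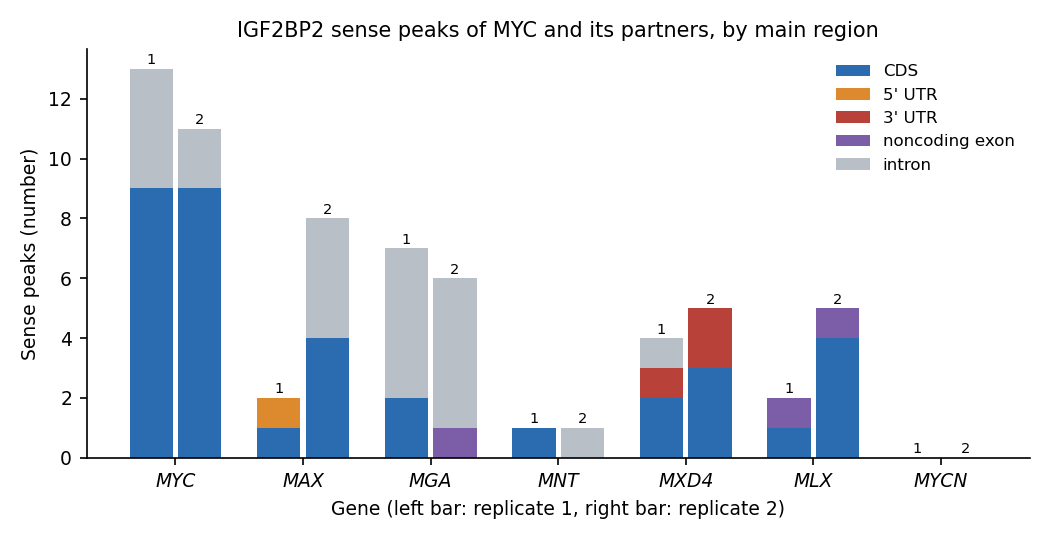
Number of IGF2BP2 sense peaks (vertical axis) for each of the 7 genes in replicate 1 (left bar) and replicate 2 (right bar), coloured by the region that held most of each peak. MYC had 13 and 11 peaks with 9 in CDS in each replicate, MGA was mostly intronic, and MYCN had none.

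Heights are given in tags, the number of reads the caller counted at a peak, and in peaks wider than 1 bin of 50 nt they are the mean over the bins. They were not adjusted for depth, which is unknown for both libraries, and RNA abundance was not taken into account. The lists start at 4 tags in replicate 1 and 5 tags in replicate 2. Many of the members' peaks were low: 15 of 29 and 18 of 36 stood at that lowest height. Of all listed peaks, sense or not, 74.3% in replicate 1 and 62.6% in replicate 2 stood there. The members' medians were 4 and 5.50 tags, beside 4 and 5 tags over all sense peaks. The highest member peaks were an MXD4 peak of 10 tags in replicate 1 and a MYC peak of 17 tags in replicate 2.

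More of the members' peaks lay mainly in CDS than in any other region, 16 of 29 in replicate 1 (55.2%, 95% Wilson interval 37.5% to 71.6%) and 20 of 36 in replicate 2 (55.6%, 39.6% to 70.5%). Among all sense peaks the shares were 19.9% and 25.6%. The libraries did not differ detectably in the members' share (p = 1.00 by a two-sided Fisher's exact test between the libraries). MYC had 9 of 13 peaks (69.2%, 42.4% to 87.3%) and 9 of 11 peaks (81.8%, 52.3% to 94.9%) in CDS, and so gave 9 of the members' 16 CDS peaks in replicate 1 and 9 of 20 in replicate 2. The CDS label follows the authors' annotation. In the best known MYC transcript most of the covered part of exon 1 would be 5′ UTR. Without MYC the share was 7 of 16 (43.8%, 23.1% to 66.8%) and 11 of 25 (44.0%, 26.7% to 62.9%). Introns held 10 and 12 of the members' peaks, and UTRs held 2 in each replicate. The intervals cover counting error only, and the exact test also takes peaks as independent. Copies made by PCR are not independent molecules and peaks of 1 gene are not independent of each other. Sites shared by both libraries enter the test on both sides.

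Of the members' peaks, 14 of 29 in replicate 1 (48.3%, 31.4% to 65.6%) and 13 of 36 in replicate 2 (36.1%, 22.5% to 52.4%) overlapped a peak of the opposite replicate, beside 16.6% and 15.8% of all sense peaks. Peaks in CDS are overlapped more often than others in these lists, so the members' CDS peaks were set against all CDS peaks. There the shares were 10 of 16 (62.5%, 38.6% to 81.5%) and 10 of 20 (50%, 29.9% to 70.1%), beside 45.8% and 35.0%, and both intervals held the value over all CDS peaks.

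The MYC peaks are described first. MYC lies on the plus strand of chromosome 8, from 127735434 to 127742951 in RefSeq on GRCh38, and is listed as ENSG00000136997.21. All 24 of its sense peaks lay inside this interval. The lists carry no exon table, but 7 peaks spanned both CDS and intron, and the shares of their length given by the authors placed 4 exon edges to the base. Exon 1 ended at 127736623, exon 2 ran from 127738248 to 127739019 and exon 3 started at 127740396. Each edge followed from 1 or 2 peaks, and where both replicates gave an edge they gave the same base. The introns between them were 1624 and 1376 nt long.

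**Figure D2:**
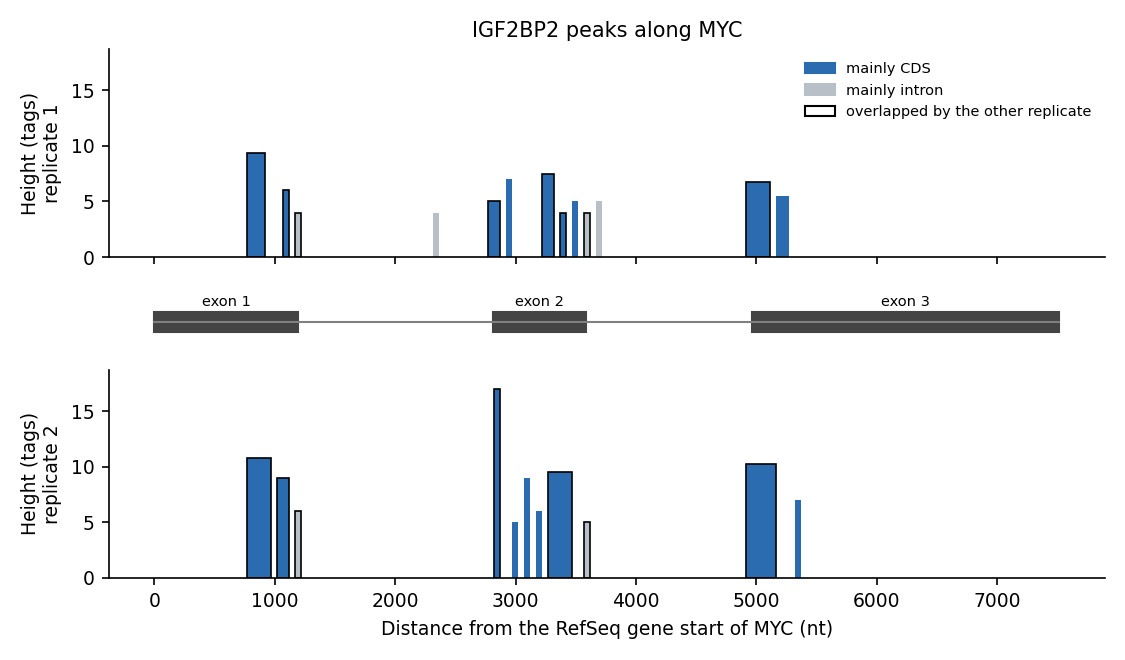
Height of each IGF2BP2 sense peak in tags (vertical axis, bars as wide as the peak) against the distance from the RefSeq start of MYC in nt, for replicate 1 (top) and replicate 2 (bottom). Exon boxes use the edges read from the region shares and, for the outer ends of exons 1 and 3, the RefSeq gene limits. Peaks gathered on exon 2, the end of exon 1 and the start of exon 3, and the last 2151 nt of the gene held none.

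At the 3′ end of the coding peaks, exon 3 carried 2 peaks in each library. In replicate 1 a peak from 127740351 to 127740550 had 6.75 tags and a peak from 127740601 to 127740700 had 5.5 tags. In replicate 2 a peak from 127740351 to 127740600 had 10.2 tags and a peak from 127740751 to 127740800 had 7 tags. The first pair overlapped and crossed the start of exon 3, with 155 and 205 exonic nt. The second peak of each library was not overlapped by the other library. All 4 peaks were counted as CDS.

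When the span of the CDS peaks was cut into 3 equal parts, these 4 peaks were the only CDS peaks at the 3′ end. In each replicate 2 of 9 CDS peaks fell there and 7 of 9 in the rest. The last part began at 127739268, inside an intron, and so held only 405 of the 1600 exonic nt. The span was set by the peaks and ended at the last one, so a peak at its 3′ end was given in advance. These counts therefore describe places and do not show fewer peaks at the 3′ end. The 9 peaks and the span take in exon 1, where most of the covered part would be 5′ UTR in the best known transcript. The span ran from 127736201 to 127740800, or 1600 nt once the introns were removed, and with introns removed the last of the 3 parts held 3 CDS peaks in replicate 1 and 2 in replicate 2. No MYC peak in either list touched both CDS and 3′ UTR, so the stop codon itself could not be placed from the lists, and it lies at or beyond 127740800. The distance of a peak to the end of the coding sequence is therefore known only as a lower bound. It was 0 nt for the last peak of replicate 2 and 100 nt for that of replicate 1. For the overlapping exon 3 peaks it was 250 nt in replicate 1 and 200 nt in replicate 2. The coding region determinant could not be placed either, so no peak is assigned to it.

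Exon 2, whose 772 nt hold a large part of the coding sequence, carried the most peaks, 6 in each library. Peaks covered 41.7% of it in replicate 1 and 54.3% in replicate 2, yet only 21.9% in both, because many peaks of the libraries lay in neighbouring bins. The highest MYC peak of the lists was here: a single bin at the start of exon 2, from 127738251 to 127738300, had 17 tags in replicate 2. The overlapping peak of replicate 1, from 127738201 to 127738300, had 5 tags and crossed from the intron into exon 2. Further into exon 2 a peak from 127738651 to 127738750 had 7.5 tags in replicate 1, and the overlapping peak from 127738701 to 127738900 had 9.5 tags in replicate 2. A 7-tag peak of replicate 1 (127738351 to 127738400) and a 9-tag peak of replicate 2 (127738501 to 127738550) had no counterpart. At the end of exon 2 both libraries had a peak over the exon edge from 127739001 to 127739050, with 4 and 5 tags, mainly in the intron.

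The peaks upstream lay in the last part of exon 1. They began 767 nt into the gene, at 127736201, where replicate 1 had a peak to 127736350 with 9.333 tags, its highest on MYC, and replicate 2 a peak to 127736400 with 10.75 tags. A peak ending at 127736550 followed in both, with 6 and 9 tags, and a peak over the end of exon 1 from 127736601 to 127736650 had 4 and 6 tags. In exon 1 every base covered in replicate 1 was covered in replicate 2 as well, 52.7% of the 423 nt from the first peak to the exon end, while 38.3% of the stretch at the start of exon 3 was covered in both. The lists count this stretch as CDS. In the best known MYC transcript most of the first exon is the 5′ UTR and translation starts in exon 2 or, from a non-AUG codon, at the end of exon 1, so the label CDS here follows the annotation the authors used, and under that transcript most of this stretch would be 5′ UTR.

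Neither list held a MYC peak classed as 5′ UTR or 3′ UTR, even in part. The 3′-most peak ended 2151 nt before the end of the RefSeq gene, and no sense peak was listed in that stretch, which takes in the 3′ UTR. Peaks that overlapped input peaks had been removed by the authors, and the inputs were not analysed here, so a stretch without a listed peak may have had too few tags or a peak in the input as well, and these cannot be told apart. Inside introns, 2 peaks of replicate 1 with 4 and 5 tags, at 127737751 to 127737800 and 127739101 to 127739150, were not overlapped in replicate 2.

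The heights of the individual peaks at the 3′ end lay among those of the other MYC peaks of the same replicate. Averaged over the bins of each exon's peaks, peaks on an exon edge included, the height was 7.60 tags in exon 1, 5.62 in exon 2 and 6.33 in exon 3 in replicate 1, and 9.57, 8.89 and 9.67 tags in replicate 2, with no test made. Exon 1 led in replicate 1 and exon 3 in replicate 2, and exon 2 was lowest in both. Over the 3 stretches together, peaks covered 50% of the 1600 nt in replicate 1, 62.3% in replicate 2, 34.2% in both and 78.1% in at least 1 of them. Only exon 2 was taken whole. The stretches of exons 1 and 3 were cut at the first and last CDS peak, which raises the shares covered there.

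MYC had more listed peaks than most genes of its length. Among the 2004 other protein-coding genes of its length decile, 1991 had fewer sense peaks in replicate 1 (99.4%) and 1961 in replicate 2 (97.9%), and the median gene of that decile had 0. MXD4 and MLX also stood above most genes of their length, with 88.6% and 87.8% of such genes below MXD4, and 85.2% and 93.1% below MLX. MGA, a long gene, had more peaks than 77.5% and 72.0% of its decile, and MNT more than 49.4% and 51.3%. MAX changed place between libraries, from 27.7% in replicate 1 to 79.8% in replicate 2. A gene without a named identifier enters this ranking with 0 peaks, which raises the percentages.

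The genes whose peaks were spread over regions most like those of MYC were IDH2, a mitochondrial isocitrate dehydrogenase, ABCA7, a lipid transporter, IK, a splicing factor, ATP8B2, a lipid flippase, and EIF3A, a subunit of an initiation factor. Likeness was the distance between 10 numbers, the peaks in each of 5 regions in each of the 2 libraries, and the distance to MYC was 1.73 for IDH2 and at most 3 for the others. IDH2 had 8 and 9 CDS peaks and EIF3A 9 and 11, beside 9 and 9 in MYC. With 2 libraries of 1 condition this likeness describes counts only.

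MAX, the obligate partner of MYC, is on the minus strand of chromosome 14 (65006101 to 65102695, ENSG00000125952.20). Its highest peak of replicate 2 lay at the start codon and ran from 65102301 to 65102350 with 14 tags. The overlapping peak of replicate 1 ran from 65102301 to 65102400 with 4.5 tags, below the 6 tags of its other MAX peak. This 4.5-tag peak lay mainly in the 5′ UTR, over 0.61 of its length, with 0.36 in CDS. The peak of replicate 2 lay over 0.22 of its length in the 5′ UTR, 0.72 in CDS and 0.06 in an intron, that is 11, 36 and 3 nt, read from high to low positions. This is the only member peak for which sequence was at hand, from a RefSeq window on GRCh38.p14, and it is shown because it places the AUG inside the shared peak. The first 30 nt of the 50 nt peak, chr14:65102321-65102350 on the minus strand, are given 5′ to 3′ with the start codon in capitals.
MAX peak at the start codon: ggccgtaggaaATGagcgataacgatgaca

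The ATG stood exactly where the region shares put the first coding base, at 65102339. It opened 36 coding nt, or 12 codons with the ATG counted, and these were followed by GT, the first letters of an intron. GGAN is the motif that the study links to IGF2BP2, and GGAC within it is a context of the RNA mark m6A. It occurred 2 times on the RNA strand of this peak and 0 times on the other strand. One match, GGAA, starts at letter 8 and ends directly before the start codon, and the other starts at letter 38, and they do not overlap. Of 35116 RefSeq windows, 60.9% held GGAN in the same 50 letters and 28.0% held at least 2 matches, so the motif is common in such windows and its presence here is a description.

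A second MAX peak was shared, at 65093701 to 65093750 with 6 tags in replicate 1 and 8 tags in replicate 2, over 0.86 of its length in CDS and 0.14 in a noncoding exon, 8945 nt from the 5′ end of the gene. These were the only MAX peaks of replicate 1. Replicate 2 had 6 more that replicate 1 lacked, of which 2 lay in CDS, with 5 and 8 tags, and 4 in introns, with 5 tags each. MAX is thus the member in which the libraries differed most in number, while both peaks of replicate 1 were found again in replicate 2.

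**Figure D3:**
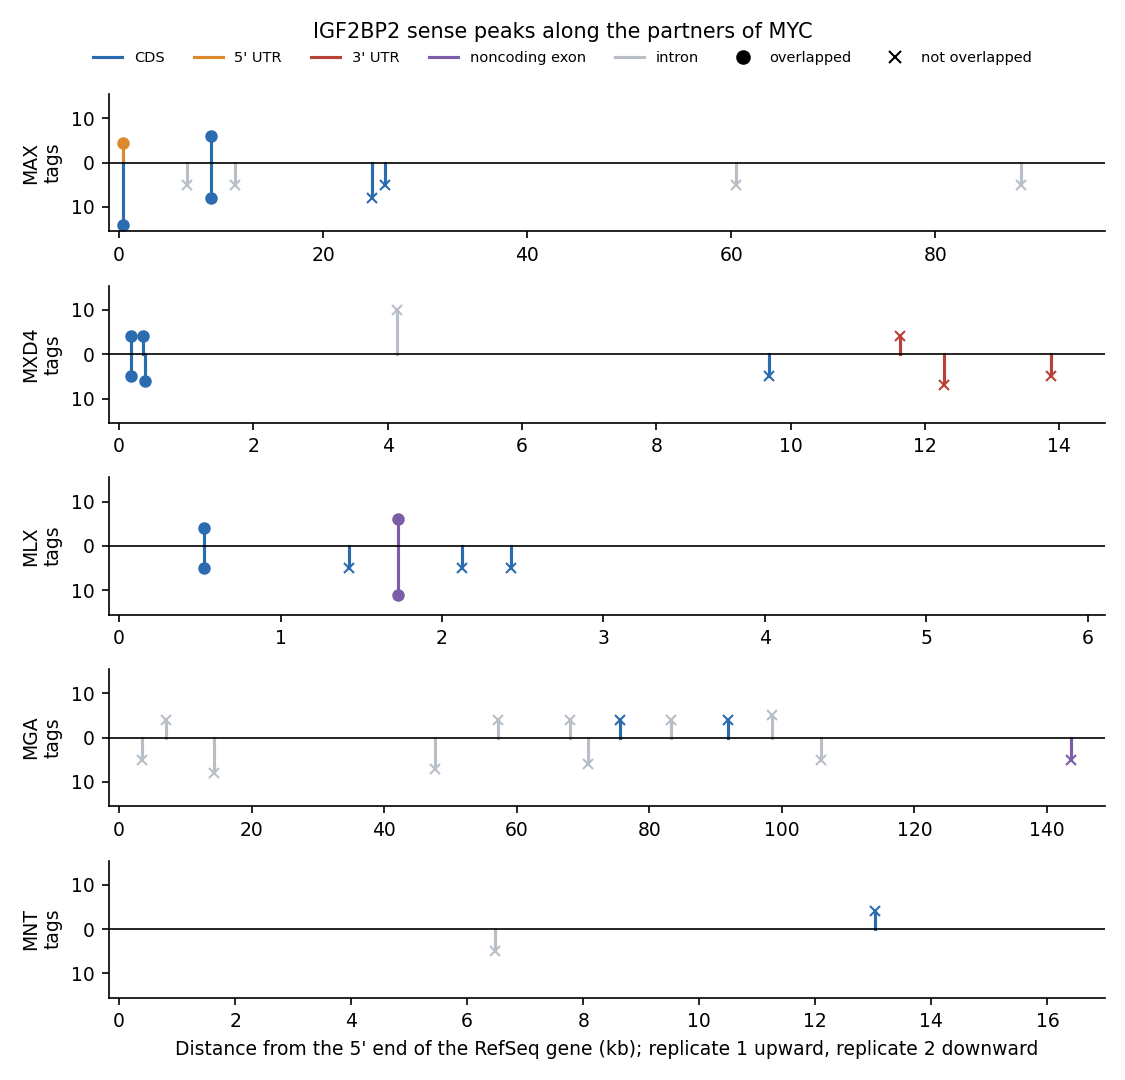
IGF2BP2 sense peaks along MAX, MXD4, MLX, MGA and MNT, by distance from the 5′ end of the RefSeq gene in kb (horizontal) and height in tags (vertical, replicate 1 upward and replicate 2 downward). Dots mark peaks overlapped by the other replicate, crosses the rest, and colours the main region. Overlapped peaks occur toward the 5′ ends of MAX, MXD4 and MLX, and MGA and MNT have none.

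MXD4 and MNT encode repressors that compete with MYC for MAX. MXD4 is on the minus strand of chromosome 4 (2247432 to 2262109, ENSG00000123933.17) and had 4 peaks in replicate 1 and 5 in replicate 2. The 2 peaks of each library nearest the 5′ end were shared. At 2261901 to 2261950, 159 nt into the gene, the heights were 4 and 5 tags, with 0.68 of the length in CDS and 0.32 in an intron in both. At 2261701 the peak of replicate 1 ran to 2261800 with 4 tags and that of replicate 2 to 2261750 with 6 tags. The remaining peaks of MXD4 were found in 1 library only. Among them was the highest member peak of replicate 1, with 10 tags from 2257951 to 2258000, mainly in an intron and over 0.38 of its length in CDS. MXD4 was the only member with peaks mainly in a 3′ UTR, 1 in replicate 1 with 4 tags (2250451 to 2250500) and 2 in replicate 2 with 5 and 7 tags (2248201 to 2248250 and 2249801 to 2249850). None of these overlapped between the libraries. MNT, on the minus strand of chromosome 17 (2384073 to 2401060, ENSG00000070444.15), had 1 CDS peak of 4 tags in replicate 1 and 1 intron peak of 5 tags in replicate 2, each at the lowest height of its list and at a different place.

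MLX, which pairs with MXD4, MNT and the MondoA proteins, is on the plus strand of chromosome 17 (42567100 to 42573203, ENSG00000108788.12). Both of its peaks in replicate 1 were found again in replicate 2 in the same bins. The peak at 42568801 to 42568850 had 6 and 11 tags and lay over 0.28 of its length in CDS and 0.72 in a noncoding exon. The peak at 42567601 to 42567650 had 4 and 5 tags, with 0.64 of its length in CDS. Replicate 2 had 3 further CDS peaks of 5 tags each. No MLX peak in either list lay in a UTR.

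MGA encodes a very large protein with both a T-box and a MYC-like domain and is on the plus strand of chromosome 15 (41621224 to 41769940, ENSG00000174197.17). It is the longest of the 7 genes, and its 7 and 6 peaks were mostly intronic, 5 in each library. Replicate 1 had 2 CDS peaks of 4 tags, and the other 4-tag or 5-tag peaks were intronic. In replicate 2 the heights ran from 5 to 8 tags, and 1 peak of 7 tags (41668801 to 41668850) lay over 0.46 of its length in a 5′ UTR and otherwise in an intron. None of the 13 MGA peaks had a counterpart in the other library. MYCN, the paralog of MYC on chromosome 2 (15940550 to 15947004), was listed only through antisense entries under ENSG00000134323.12.

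The wider surroundings of MYC were taken from lists of known biology, 63 genes in all. Of these, 50 had a sense peak in both libraries, 43 had an overlapped peak and 17 reached 10 tags in both, beside 44.2%, 15.2% and 3.80% of all protein-coding genes. The lists hold different genes, chosen with results of these data known. They were not matched to all protein-coding genes in length or RNA abundance, so the counts are given as a description. Genes without a named identifier count as having no peak, which lowers the shares over all protein-coding genes.

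Among these lists the rest of the MAX and MLX network was the sparsest. All 6 genes had a peak in replicate 2, but only MYCL, MXD3 and MLXIP had one in both libraries. Of the 6, 2 had an overlapped peak and none had 10 tags in both. Over all protein-coding genes these shares were 44.2%, 15.2% and 3.80%, so no scarcity is read from 6 genes. MLXIP, which encodes MondoA, a partner of MLX, had 24 and 30 peaks with up to 9 and 12 tags, and MXD3 had 3 and 3 peaks, of which 2 in each library overlapped.

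Among 16 cofactors and antagonists of MYC, 14 had a peak in both libraries, 14 an overlapped peak and 6 a height of 10 tags or more in both. NCOR1, a corepressor, had highest peaks of 14 and 18 tags, and RUVBL2, an ATPase of chromatin complexes, of 13 and 17 tags. TRRAP, a scaffold that MYC recruits, reached 11 and 15 tags, and EP300, an acetyltransferase, 13 and 11 tags. MYCBP had no sense peak in either list.

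Of 12 genes that act on the stability of the MYC protein, 9 had a peak in both libraries, 7 an overlapped peak. In both libraries 10 tags were reached by 2 of them, HUWE1, a giant ubiquitin ligase, with 16 and 25 tags, and USP36, a deubiquitinase, with 10 and 14 tags.

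All 7 genes of proteins that bind the MYC coding region determinant or belong to the IGF2BP family had peaks in both libraries, 5 had an overlapped peak and 2 reached 10 tags in both. YBX1, a cold-shock domain protein, reached 19 and 36 tags and HNRNPU, a nuclear RNA-binding protein, 16 and 32 tags. Among 22 known MYC targets, 17 had a peak in both libraries, 15 an overlapped peak and 7 reached 10 tags in both. The glycolytic enzymes ENO1 and LDHA had highest peaks of 24 and 35 tags and of 20 and 23 tags. The nucleolar proteins NPM1 and NCL had 24 and 19 tags and 14.5 and 26 tags, and EIF4A1, an initiation factor helicase, had 15 and 20 tags. CDK4 had no peak of its own in either list, and NME1 could not be told from its neighbour by position.

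**Figure D4:**
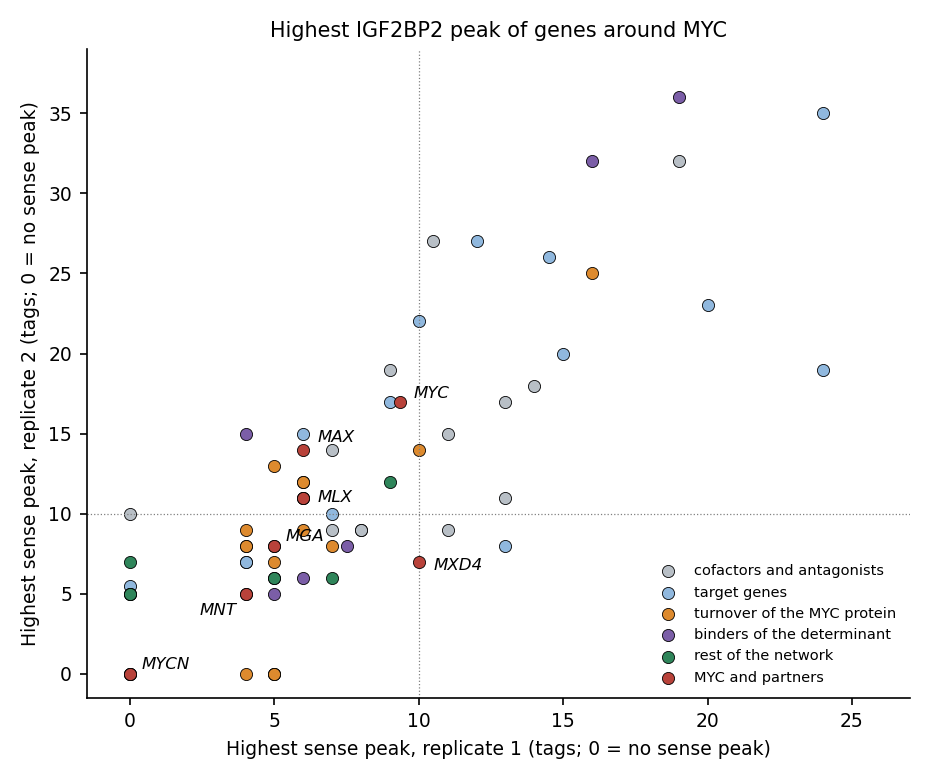
Highest sense peak of each gene in tags, replicate 1 against replicate 2, for the 7 members (labelled) and the 63 genes of the lists, with 0 where a gene had no sense peak and dotted lines at 10 tags. By listed height, a mean over bins in wider peaks, the members reach at most 10 tags in replicate 1 (17 in replicate 2). At or past both lines lie 17 list genes. Some points coincide.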

How the data were processed

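Per the labels and the methods, the authors read 150 bp from both fragment ends, mapped the pairs to GRCh38 by TopHat2, kept reads that mapped once, called peaks in each library by comparison with simulated reads per gene, and dropped peaks found in the input. The deposited height is a signal in tags, a mean over 50 nt bins: every fractional height (2068 and 3848 peaks) occurs in a wider peak and is whole once multiplied by the bins. The deposited p-value of a peak served only as a filter. The annotation release is not given in the sources used here, and read depth is unknown.

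The members, lists and tests were chosen with earlier results of these data known. Starts were printed 1-based, 1 more than listed, a reading that the MAX start codon bore out. Ties between regions went to the first name in alphabetical order. Overlap required 1 nt on the same strand. Identifiers were named from RefSeq (GRCh38.p14): a name was given when 1 protein-coding gene held 80% of the CDS and UTR peaks within 1000 nt, which named 12845 of 20428 identifiers. In naming, strand came from the RefSeq promoter table where it had the gene. The strand given for each member with a sense peak, MYC included, was that of its peaks. The alternative by position used the same strand, so it is no separate check of strand. The lists hold no other samples.

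All members were named. In each list, genes with 10 tags in both libraries (at most 5, by the lower height) and genes without a peak were named, except for 1 result that is not reported here, and other genes are given for context after their values were seen. The alternatives were minimum heights, a p-value under 0.01, exonic peaks, peaks by position, other overlaps, length weighting, other definitions of the 3′ end and each replicate left out; removing introns from the span, counting any CDS share and leaving out MYC for overlaps were added after seeing the data. Overlap and naming were tested on simulated data. Python 3.11.15, numpy 2.4.6, pandas 2.3.3, scipy 1.17.1 and matplotlib 3.10.9 were used.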

Additional observations from a re-analysis of the deposited data

Results flagged for a closer look

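Antisense entries of the members lie outside the measurement of sense peaks. They had 4 to 6 tags, in lists that hold no peak under 4 tags in replicate 1 and 5 tags in replicate 2, so a height above 0 follows from being listed, and no input was at hand to compare. MGA had 2 antisense peaks of 4 tags each in replicate 1 and 1 of 5 tags in replicate 2. MYCN had 1 of 4 tags in replicate 1 and 1 of 5 tags in replicate 2. MNT had 1 of 6 tags and MXD4 1 of 5 tags, both in replicate 2. None of these peaks was overlapped by an antisense peak of the same gene in the other library, and MYC, MAX and MLX had none. Their origin was not tested.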

How the results depend on the processing

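Of 75 values under alternatives, 58 stayed within 1.5 times the reported count, the Wilson interval of the reported share or the spread between replicates. Some of the 58 could not move, so the tally does not measure robustness. The filter of p under 0.01 left every peak in place, and each of 2 replicates always lies within 1 SD of their mean. A minimum of 10 tags moved the most: it left 1 member peak in replicate 1 and 5 in replicate 2, 0 members with a peak in both and 0 with an overlapped peak, overlapped shares of 0% and 0%, and CDS shares of 0% (1 peak) and 80.0% (5 peaks). For MYC it left 0 and 3 CDS peaks and, at the 3′ end, 0 and 1. At 5 tags, where both lists start alike, replicate 1 kept 13 member peaks and the overlapped share of replicate 2 was 19.4%; 16 peaks of replicate 1 stood below 5 tags. With exonic peaks only, replicate 1 kept 19. Taking 50% of the CDS peak span as the 3′ end gave 5 MYC peaks in each replicate. The filter of p under 0.01 removed nothing, since no listed p-value reached it. With either replicate left out, 6 members had a peak, the number of member peaks was 29 to 36 and the CDS share 55.2% to 55.6%. An overlap without one of the lists could not be given. No paired analysis was possible because the inputs were not analysed here and only 1 group had values. Depth is unknown, so peaks near the lowest listed height may be missing from either list.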
